A study of Homo sapiens with 9 samples.

Results

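The Fc receptor-like genes of B cells were followed across 3 culture conditions of MEC1, an established human cell line of chronic lymphocytic leukemia (CLL), a leukemia of mature B lymphocytes. The members were the 9 rows of the count table named FCRL1, FCRL2, FCRL3, FCRL4, FCRL5, FCRLA, FCRLB, FCMR and FCGR2B, out of 59050 gene symbols in all. The 9 libraries hold 3 replicates each of MEC1 grown in 2D, of cells 3D bioprinted into a hydrogel and harvested on day 7 (3D_7d), and of such cells on day 14 (3D_14d). No treatment is labelled in any group, and the sample titles call the cells MECPGK, a name that the labels do not explain. The labels give no time in culture for 2D, and RNA of the scaffolds went through TRIzol, DNase I and then the column kit that was used alone for 2D, so that the culture method, the time and the extraction cannot be told apart between 2D and 3D. All 9 samples come from the same cell line, and the labels do not say whether replicates were separate cultures, so that p-values measure the spread between these samples, which may be technical.

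Fc receptors bind the constant part of antibodies. The Fc receptor-like proteins are their relatives on B cells, and most of them carry short tyrosine motifs in the tail (ITIM, inhibitory, or ITAM-like, activating) through which phosphatases or kinases dampen or tune signals of the B cell receptor. FCGR2B is the inhibitory IgG receptor of B cells, FCMR binds IgM, FCRL3, FCRL4 and FCRL5 are surface receptors for which immunoglobulin ligands are known, FCRL1 and FCRL2 are surface relatives, and FCRLA and FCRLB stay inside the cell.

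The assigned reads of a sample numbered 54662799 to 85968686. Levels in CPM, the reads of a gene scaled to the assigned reads of its library, are normalized with edgeR's TMM factors, and RPKM values are CPM divided by exon length in kilobases. A gene was tested when 3 or more samples exceeded 1 CPM, which held for 13463 genes, with edgeR's quasi-likelihood test, and an adjusted p (Benjamini-Hochberg over these genes) of at most 0.05 was the threshold. Replicates of 3D_14d were the least alike. The chi-square of 2 samples of this group, divided by the number of genes, was 155 to 305, against 22.5 to 81.9 in the other groups, and 3D_14d replicate 1 was in both of the most distant pairs. All 7 B cell markers were detected, with a summed level of 3230 to 3264 CPM in 2D, 3731 to 4325 in 3D_7d and 4399 to 5063 in 3D_14d.

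All members lie on chromosome 1 of GRCh38, as the count table gives them. FCRL5 (157513377 to 157552515), FCRL4 (157573747 to 157598085), FCRL3 (157676481 to 157700769), FCRL2 (157745733 to 157777132) and FCRL1 (157794403 to 157820120) follow each other on the minus strand. FCGR2B (161663147 to 161678654), FCRLA (161706972 to 161714351) and FCRLB (161721563 to 161728143) are neighbours on the plus strand, and FCMR (206903317 to 206921998) lies apart on the minus strand. The exons of FCMR share 27.3% of their bases with IL24 on the opposite strand. IL24 had 61 to 147 counts per sample, or 0.236% to 0.364% of the FCMR count. These counts do not show how reads in the shared bases were assigned, or whether they were counted at all. The strand setting of the counting is not given in the sources used here.

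The 250 bases upstream of an annotated start were read for FCGR2B, FCRL4, FCRL5 and FCRL3 from the RefSeq promoters of GRCh38.p14. They are shown because these are the members with a difference of over 1 on the log2 scale in some comparison, together with FCRL5, whose level ran with that of FCRL4. Each is written 5′ to 3′ on the strand of the gene, and capitals mark the letters GAGGAA or their reverse complement TTCCTC, the core bound by the B cell factors PU.1 and SPIB.
FCGR2B, chr1:161662893-161663142, plus strand: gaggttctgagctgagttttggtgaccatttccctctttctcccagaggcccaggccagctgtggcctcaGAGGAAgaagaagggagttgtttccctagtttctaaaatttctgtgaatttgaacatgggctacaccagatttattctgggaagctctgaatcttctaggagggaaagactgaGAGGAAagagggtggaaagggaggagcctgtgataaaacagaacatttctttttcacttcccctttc
FCRL4, chr1:157598086-157598335, minus strand: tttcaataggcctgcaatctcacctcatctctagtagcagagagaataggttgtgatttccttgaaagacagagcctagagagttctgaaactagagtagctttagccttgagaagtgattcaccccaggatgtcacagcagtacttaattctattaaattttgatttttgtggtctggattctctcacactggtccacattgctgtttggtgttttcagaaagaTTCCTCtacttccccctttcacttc
FCRL5, chr1:157552516-157552765, minus strand: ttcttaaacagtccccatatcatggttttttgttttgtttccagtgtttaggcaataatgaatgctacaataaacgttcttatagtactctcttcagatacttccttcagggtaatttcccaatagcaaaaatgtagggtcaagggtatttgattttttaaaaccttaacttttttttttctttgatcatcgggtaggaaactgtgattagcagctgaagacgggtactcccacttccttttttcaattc
FCRL3, chr1:157700770-157701019, minus strand: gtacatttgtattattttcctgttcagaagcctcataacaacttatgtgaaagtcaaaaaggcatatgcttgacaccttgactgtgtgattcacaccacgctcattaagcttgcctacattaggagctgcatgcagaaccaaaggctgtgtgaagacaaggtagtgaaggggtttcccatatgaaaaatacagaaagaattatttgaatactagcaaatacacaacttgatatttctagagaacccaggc
The table holds another FCGR2B window, at an upstream start (chr1:161646993-161647242), that has no match to the core. In the printed windows the core was found 180 and 67 bases before the FCGR2B start and 25 bases before that of FCRL4, and was absent from the windows of FCRL5 and FCRL3. The table holds 13 windows for the 9 members, of which 7 windows, belonging to 6 genes, held the core, and 23.6% of all 35116 promoter windows of this length held it. The octamer core ATGCAAA (or its reverse complement) was found in 1 of the 13, a window of FCRLB, against 3.94% of all windows, and TATAAA in 0 of 13 against 10.7%. GC content of the printed windows was 34.8% for FCRL5, 38.8% for FCRL3, 41.2% for FCRL4 and 46.4% for FCGR2B, below the median of 58% over all windows.

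Per exon length, the members spanned from over 100 RPKM to almost no reads, and the order differed at the top between 2D and 3D. In 2D, FCMR led with 185 ± 8.31 RPKM (SD, n = 3), followed by FCRLA with 170 ± 4.61, FCGR2B with 42.9 ± 2.13, FCRL5 with 11.1 ± 1.45 and FCRLB with 7.44 ± 1.27. FCRL3 (0.409 ± 0.0468 RPKM) and FCRL4 (0.228 ± 0.121 RPKM) were far lower. In both 3D groups FCRLA stood above FCMR, with 203 ± 20.5 against 143 ± 10.1 RPKM in 3D_7d and 316 ± 46.8 against 244 ± 13.1 in 3D_14d, and the samples of these genes did not overlap in any group. The RPKM of FCMR counts all its exon bases, 27.3% of which are shared with IL24. If reads there were not counted, FCMR would be set too low, so its order against FCRLA is uncertain. The order of FCGR2B, FCRL5 and FCRLB below them was the same in all 3 groups, with no overlap between neighbours. FCRL4 was above FCRL3 in 3D_14d (1.94 ± 0.722 against 0.631 ± 0.225 RPKM), while in 3D_7d their ranges overlapped (1.51 ± 1.05 against 1.18 ± 0.517). Over the 9 members the summed level was 417 ± 14.6 RPKM in 2D, 424 ± 34.0 in 3D_7d and 690 ± 61.1 in 3D_14d, where every sample was above all samples of the other groups.

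**Figure D1:**
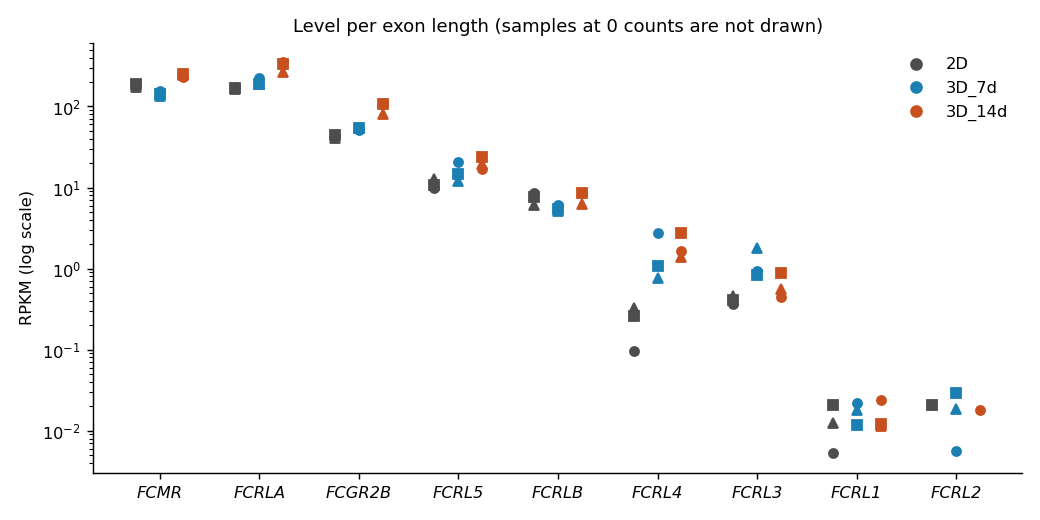
RPKM on a log scale (y axis) of each member (x axis) in the 3 samples of 2D (grey), 3D_7d (blue) and 3D_14d (orange), with replicates 1, 2 and 3 as circles, squares and triangles. FCMR and FCRLA lie above 100 RPKM in all samples, FCRL3 and FCRL4 between 0.0949 and 2.76 RPKM, and FCRL1 and FCRL2 below 0.03 RPKM.

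FCRL1 and FCRL2 did not pass the filter and were not tested in the main analysis. FCRL1, whose tail carries ITAM-like motifs, had 1, 6 and 3 counts in 2D, 4, 2 and 3 in 3D_7d and 4, 2 and 2 in 3D_14d. FCRL2 had 0, 6 and 0 counts in 2D, 1, 5 and 3 in 3D_7d and 3, 0 and 0 in 3D_14d. The groups overlapped for both genes. In samples with 0 reads, a count of 0 allows a level of FCRL2 of up to 0.0569 CPM (3 counts, counting error only). Without the filter, no difference between conditions passed the threshold for either gene. FCRL2 then had log2 differences of 1.21 in 3D_7d vs 2D (edgeR, adjusted p = 0.754) and -1.54 in 3D_14d vs 3D_7d (adjusted p = 0.694). Differences of this size could therefore not be detected at counts of 6 or fewer.

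In 3D_7d vs 2D, FCRL3 and FCRL4 rose, FCMR fell, and the other 4 tested members did not pass the threshold. These 2 higher and 1 lower of 7 tested members stand beside 22.2% of all tested genes called higher and 21.2% called lower. Among the 7, 6 had no overlap between the groups, against 64.6% of all tested genes. In 3D_14d vs 2D, 5 of the 7 were called higher (FCRL4, FCRL5, FCRLA, FCMR and FCGR2B) and 0 lower, beside 19% of all tested genes called higher and 17.2% called lower. In 3D_14d vs 3D_7d, 3 were called higher (FCRLA, FCMR and FCGR2B) and 0 lower, beside 14.5% and 13.6% of all tested genes. The median log2 fold change of the 7 was 0.32, 0.87 and 0.50 in these comparisons, and that of all tested genes 0.00, 0.02 and 0.00. FCRL4 is part of these counts and medians, although it passed the filter through its 3D samples, where it is high. A call lower in 3D than in 2D was therefore hardly open to it. Without 3D_14d replicate 1, all 8 of these day 14 calls remained, with log2 differences against 2D of 3.17 for FCRL4, 1.13 for FCGR2B, 0.98 for FCRL5, 0.81 for FCRLA and 0.44 for FCMR, and against day 7 of 0.82 for FCGR2B, 0.82 for FCMR and 0.57 for FCRLA. In the same fit the members called higher in 3D_7d vs 2D went from 2 to 4, with FCGR2B and FCRL5 added. Calls that also needed a log2 fold change of 1 or more in size were FCRL3 and FCRL4 at day 7, FCRL4 and FCGR2B at day 14 and 0 members between the time points. The first and second comparisons share the 2D samples, and the third shares its samples with both. In bulk RNA, a change in how many cells express a gene and a change in the RNA per cell cannot be told apart.

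**Figure D2:**
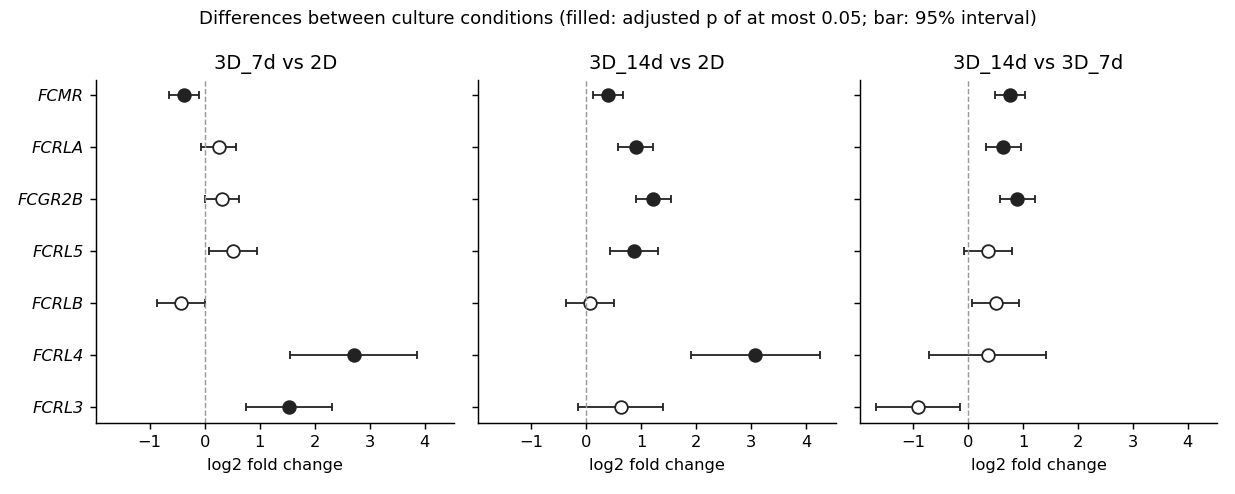
Log2 fold change (x axis) of the 7 tested members (rows) in the 3 comparisons, with bars for the 95% interval and filled points for an adjusted p of at most 0.05. All 5 filled points of 3D_14d vs 2D lie above 0, and FCMR lies below 0 in 3D_7d vs 2D and above 0 in the other panels.

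The levels were set by TMM, and scaling by total counts alone moved the median of all genes by -0.16 in 3D_7d vs 2D and by -0.21 in 3D_14d vs 2D (log2). With that scaling, the higher genes made up 37.6% rather than 51.1% of all calls at day 7 and 33.1% rather than 52.5% at day 14. The members called higher at day 14 were then FCRL4, FCRL5, FCRLA and FCGR2B, and FCMR, with a log2 fold change of 0.20, did not pass (edgeR, adjusted p = 0.231).

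FCGR2B, the receptor that brakes B cell activation when IgG complexes bind, had the lowest p of the members in 3D_14d vs 2D. Its level was 93.3, 94.5 and 86.1 CPM in 2D, 110, 117 and 115 CPM in 3D_7d and 238, 226 and 173 CPM in 3D_14d (replicates 1 to 3). All samples at day 14 were above all at day 7, and these above all in 2D, with replicate 3 the lowest at day 14. The difference of 3D_14d vs 2D was 1.22 ± 0.146 (log2, SE; 2.32-fold; edgeR, adjusted p = 8.09e-05) and that of 3D_14d vs 3D_7d was 0.90 ± 0.145 (adjusted p = 0.00113). The difference of 3D_7d vs 2D was 0.32 ± 0.144 and missed the threshold (edgeR, adjusted p = 0.0921; 95% interval 0.005 to 0.629), although it passed in 3 of 17 alternative fits, among them the fits without 3D_14d replicate 1 (0.30, adjusted p = 0.0411) and without 3D_14d replicate 3 (0.32, adjusted p = 0.0322).

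FCGR2B has related neighbours, FCGR2A, an activating IgG receptor of myeloid cells, and FCGR2C, which arose from both. Of all 100-base stretches of the FCGR2B transcripts in GENCODE release 44, 11.1% also occur in another gene, 10.8% in FCGR2C and 0.93% in FCGR2A. The split of reads between these genes is therefore uncertain, more so for FCGR2C than for FCGR2A. The other members share none. FCGR2C stood at 13.7, 13.8 and 12.0 CPM in 2D, 10.8, 9.89 and 9.06 in 3D_7d and 17.1, 15.1 and 11.4 in 3D_14d. FCGR2A was lower, at 5.63 to 5.97, 3.64 to 4.59 and 5.87 to 7.97 CPM. FCGR2C and FCGR2A did not follow FCGR2B at day 7, where both lay below all 2D samples (log2 differences of -0.41 for FCGR2C, adjusted p = 0.104, and -0.52 for FCGR2A, adjusted p = 0.0800, edgeR), and at day 14 they overlapped 2D. From day 7 to day 14 both of these genes rose, FCGR2A by 0.82 (edgeR, adjusted p = 0.0173) and FCGR2C by 0.55 (adjusted p = 0.0499). The FCGR2C call was lost in 13 of 16 alternative fits, 8 of them fits with 1 sample left out (adjusted p of 0.0622 to 0.134), which spared only the one without 3D_14d replicate 3. That of FCGR2A was lost in 3, among them the fit without 3D_7d replicate 2 (0.82, adjusted p = 0.0585). FCGR2B took 82.7% to 83% of the reads of the 3 genes in 2D, 88.4% to 89.4% in 3D_7d and 90.5% to 90.9% in 3D_14d. These shares did not overlap between any groups, and a two-sided exact permutation test gave p = 0.1 for each comparison, which is the smallest that 3 samples against 3 allow. With the reads of the 3 genes summed, an alternative chosen after seeing the data, the difference was 0.21 at day 7 and 1.08 at day 14 against 2D (edgeR, adjusted p = 0.254 and 0.000176).

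**Figure D3:**
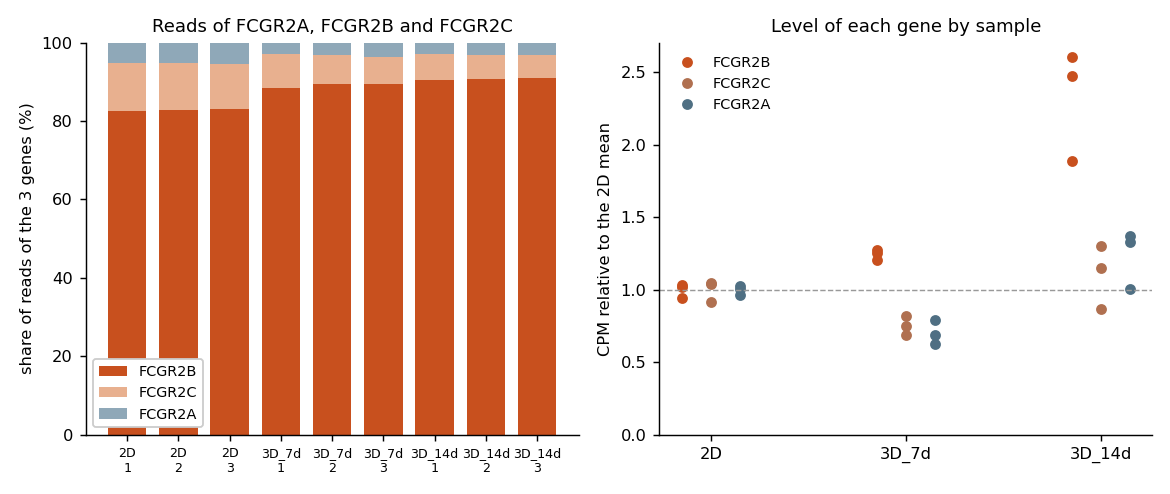
Left, share of the summed reads of FCGR2A, FCGR2B and FCGR2C taken by each gene in each sample (stacked bars, percent, x axis group and replicate). Right, CPM of each gene in every sample relative to its 2D mean (dashed line at 1), where FCGR2B lies near 1.25 in 3D_7d and near or above 1.9 in 3D_14d while FCGR2C and FCGR2A lie below 1 in 3D_7d.

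Monocytes also express FCGR2B. Of 9 monocyte and macrophage markers only ITGAM was tested, and CD68 had 0 counts in all samples. LYZ, S100A8 and FCGR1A had at most 2, 1 and 2 counts in any sample, and FCN1 and S100A9 at most 16 and 13. CD14 and CSF1R reached 40 and 41 counts. Their means were 0.229 and 0.255 CPM in 2D, 0.387 and 0.428 in 3D_7d and 0.252 and 0.162 in 3D_14d. The summed level of the list was 1.74 to 2.33 CPM in 2D, 1.16 to 2.495 in 3D_7d and 3.86 to 5.23 in 3D_14d. ITGAM alone made up 1.40, 0.774 and 4.198 CPM of these sums on average. The part of the list in the level of FCGR2B was not tested.

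FCRLA, an endoplasmic reticulum protein of B cells that binds immunoglobulin inside the cell, had the highest RPKM of the members in 3D, with the limit for FCMR given above. It stood at 409, 405 and 389 CPM in 2D, 535, 449 and 453 CPM in 3D_7d and 830, 787 and 621 CPM in 3D_14d. With TMM scaling each group lay above the one before it with no overlap, as for FCGR2B. Scaled by total counts alone, 2D and 3D_7d overlapped for FCRLA, with a log2 difference of 0.10 (edgeR, adjusted p = 0.526). The change passed the test at day 14, by 0.90 ± 0.147 against 2D (log2, SE; 1.86-fold; edgeR, adjusted p = 0.000618) and by 0.64 ± 0.146 against day 7 (adjusted p = 0.00735), but not in 3D_7d vs 2D (0.26 ± 0.146, adjusted p = 0.171; 95% interval -0.06 to 0.57). Both day 14 calls held in all 16 alternative fits. Over the 9 samples the log2 CPM of FCRLA and FCGR2B had a Pearson r of 0.977, a description over samples that share libraries and groups. Closest to FCRLA among genes that are no members were B3GALT4, FADS3 and CLDN23 (r of 0.983, 0.982 and 0.981 over the 9 samples), and closest to FCGR2B were ARL6IP5, CAB39L and CHRNB1 (0.991, 0.991 and 0.990).

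FCRLB, the other intracellular relative, did not pass the threshold in any comparison. Its level was 17.1, 15.0 and 12.1 CPM in 2D, 12.0, 10.7 and 10.01 CPM in 3D_7d and 17.2, 16.8 and 12.3 CPM in 3D_14d. The samples of day 7 were below all others, the nearest being 2D replicate 3, and 2D and 3D_14d overlapped. Against 2D the difference was -0.43 ± 0.199 at day 7 (log2, SE; edgeR, adjusted p = 0.0947; 95% interval -0.866 to -0.003), where it passed with total counts (-0.59, adjusted p = 0.0248) and with only the 6 samples of the contrast (-0.45, adjusted p = 0.0334), and 0.07 ± 0.199 at day 14 (adjusted p = 0.812; 95% interval -0.36 to 0.50). The sign of the latter turned with scaling by total counts (-0.14), without 2D replicate 3 (-0.08) and without 3D_14d replicate 1 (-0.01). Between 3D_14d and 3D_7d the difference was 0.50 ± 0.200 (adjusted p = 0.0766), and it passed without 3D_14d replicate 3 (0.64, adjusted p = 0.0317) and in the Wald test of DESeq2 (adjusted p = 0.0436). HIST1H3H, FCGR2C and PLEKHF1 were nearest to FCRLB (r of 0.956, 0.954 and 0.948 over the 9 samples).

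FCMR, the IgM receptor also known as TOSO, was the member that fell at day 7 and rose at day 14. It had 577, 570 and 530 CPM in 2D, 464, 429 and 404 CPM in 3D_7d and 691, 767 and 747 CPM in 3D_14d. With TMM scaling the groups did not overlap, with day 7 lowest and day 14 highest. Scaled by total counts alone, 2D and 3D_14d overlapped for FCMR, as 3D_14d replicate 1 lay below 2D replicates 1 and 2. The difference was -0.37 ± 0.127 in 3D_7d vs 2D (log2, SE; edgeR, adjusted p = 0.0314), 0.40 ± 0.127 in 3D_14d vs 2D (adjusted p = 0.0274) and 0.77 ± 0.127 in 3D_14d vs 3D_7d (1.70-fold; adjusted p = 0.00134). The last held in all 16 alternative fits, while both calls against 2D were near the threshold. At day 7 the call was lost in 6 of 16 alternative fits, among them the fits without 2D replicate 1 (-0.38, adjusted p = 0.0816), 2D replicate 2 (-0.39, 0.0813), 3D_7d replicate 2 (-0.40, 0.0721) and 3D_7d replicate 3 (-0.37, 0.0884). At day 14 it was lost in 8, among them the fits without 2D replicate 1 (0.40, adjusted p = 0.0781), 2D replicate 2 (0.39, 0.104), 2D replicate 3 (0.33, 0.137), 3D_7d replicate 2 (0.37, 0.0604) and 3D_7d replicate 3 (0.37, 0.0549). The genes with the level most like that of FCMR were PIP4P2, C2orf15 and PNRC1 (r of 0.990, 0.987 and 0.985 over the 9 samples).

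**Figure D4:**
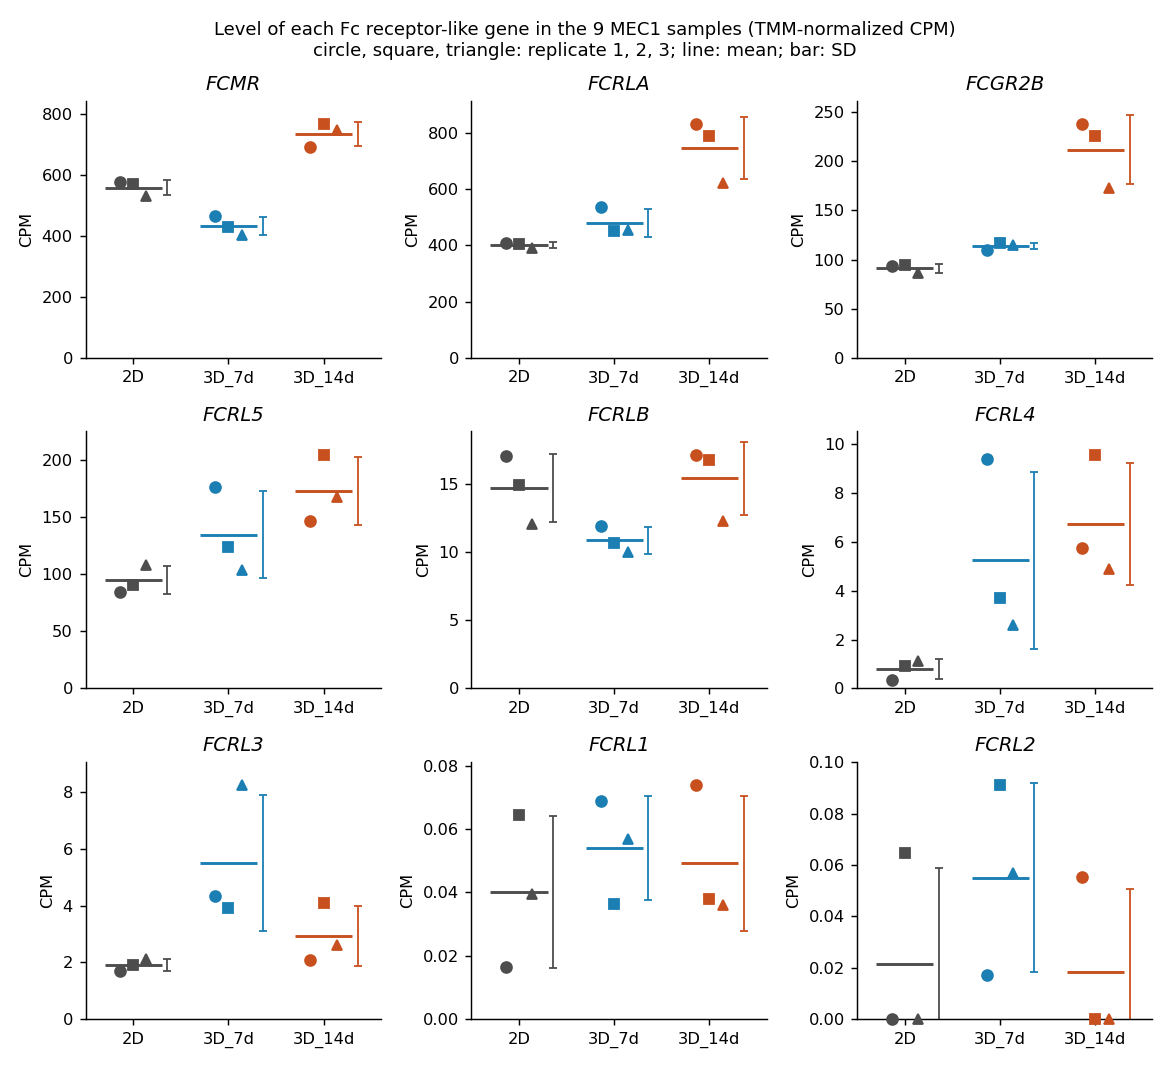
TMM-normalized CPM (y axis, from 0) of each member in the samples of 2D, 3D_7d and 3D_14d (x axis), with replicates 1, 2 and 3 as circles, squares and triangles, a line for the mean and a bar for the SD (n = 3). FCMR is lowest at day 7 (404 to 464 CPM), FCGR2B and FCRLA are highest at day 14, and FCRL4 lies at or below 1.14 CPM in all 2D samples.

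FCRL4, an ITIM receptor known from memory B cells of mucosal tissues, had the largest fold change of the tested members against 2D. It had 0.329, 0.904 and 1.14 CPM in 2D (20, 84 and 87 counts), 9.41, 3.72 and 2.62 CPM in 3D_7d and 5.75, 9.58 and 4.88 CPM in 3D_14d. Every 3D sample was above every 2D sample, the time points overlapped, and within day 7 replicate 1 was 3.59-fold above replicate 3. FCRL4 passed the filter through the 3D samples, since only 1 sample of 2D exceeded 1 CPM. The differences against 2D were 2.71 ± 0.534 at day 7 (log2, SE; 6.56-fold; edgeR, adjusted p = 0.00146) and 3.07 ± 0.540 at day 14 (8.41-fold; adjusted p = 0.000961), and 0.36 ± 0.492 between the time points (adjusted p = 0.614; 95% interval -0.70 to 1.42). The latter was 1.09 without 3D_7d replicate 1 and 0.02 without 3D_14d replicate 2, neither past the threshold. Without 3D_7d replicate 1 the day 7 difference was 1.96 (adjusted p = 0.00731), and both calls held in all 16 alternative fits. The nearest genes were MAP3K14-AS1, AMPD3 and ZNF212 (r of 0.965, 0.963 and 0.957 over the 9 samples).

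FCRL5, an IgG receptor with ITIM motifs that is also found on plasma cells, rose at day 14. Its level was 84.6, 90.5 and 108 CPM in 2D, 176, 123 and 104 CPM in 3D_7d and 146, 204 and 168 CPM in 3D_14d. Day 14 lay above 2D in all samples, whereas day 7 replicate 3 fell within the range of 2D. The difference was 0.87 ± 0.201 in 3D_14d vs 2D (log2, SE; 1.83-fold; edgeR, adjusted p = 0.00508), 0.51 ± 0.200 in 3D_7d vs 2D (adjusted p = 0.0555; 95% interval 0.08 to 0.94) and 0.36 ± 0.200 between the time points (adjusted p = 0.194). The day 7 difference passed in 5 of 16 alternative fits, among them the fits without 3D_14d replicate 1 (0.50, adjusted p = 0.0316), without 3D_14d replicate 2 (0.51, 0.0455) and without 3D_7d replicate 3 (0.62, 0.0320), and without 3D_7d replicate 1 it was 0.24 (adjusted p = 0.294). The difference between the time points passed without 3D_7d replicate 1 (0.60, adjusted p = 0.0329). FCRL4 and FCRL5 had a Pearson r of 0.925 over the 9 samples, again a description over samples that share libraries and groups. The sample highest within each group was the same for both (2D replicate 3, 3D_7d replicate 1 and 3D_14d replicate 2). The lowest was the same in 2D and 3D_7d, but in 3D_14d it was replicate 3 for FCRL4 and replicate 1 for FCRL5. MAP3K14-AS1 was also among the nearest genes of FCRL5 (r = 0.976), with PARP9 (0.977) and AC008875.2 (0.963). The 6 plasma cell markers summed to 1405 to 1419 CPM in 2D, 1523 to 1685 in 3D_7d and 1277 to 1398 in 3D_14d. Within this sum, the mean levels at day 7 were above 2D for PRDM1 (49.8 against 19.95 CPM) and IRF4 (806 against 385) and below it for MZB1 (82.4 against 308) and SDC1 (17.1 against 37.7), and their part in the level of FCRL5 was not tested.

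FCRL3, a receptor with ITIM and ITAM-like motifs, had its highest mean at day 7. Its level was 1.68, 1.90 and 2.11 CPM in 2D, 4.33, 3.90 and 8.25 CPM in 3D_7d and 2.09, 4.10 and 2.601 CPM in 3D_14d. All samples of day 7 were above 2D, with replicate 3 far above the others, and day 14 overlapped both. The difference was 1.53 ± 0.360 in 3D_7d vs 2D (log2, SE; 2.89-fold; edgeR, adjusted p = 0.00436), 0.63 ± 0.357 in 3D_14d vs 2D (adjusted p = 0.188; 95% interval -0.15 to 1.40) and -0.91 ± 0.355 between the time points (adjusted p = 0.0735). The day 7 call held in all 16 alternative fits, with a difference of 1.07 without 3D_7d replicate 3 (adjusted p = 0.0359), and the difference between the time points was -1.23 without 3D_14d replicate 2 (adjusted p = 0.0287) and -0.47 without 3D_7d replicate 3 (adjusted p = 0.375). UBE3B, ZFP64 and COG1 had the level most like that of FCRL3 (r of 0.978, 0.978 and 0.965 over the 9 samples). T and NK cells also express FCRL3. Of 7 T cell markers only TRAC was tested (332, 472 and 649 CPM in the 3 groups) and CD3D and CD3G had at most 2 and 3 counts in any sample, while the sum of the list, nearly all TRAC, was 311 to 356, 459 to 487 and 527 to 716 CPM. CD3E (0.763, 0.213 and 0.526 CPM) and CD2 (0.409, 0.209 and 0.330 CPM) had lower means in 3D than in 2D. CD8A (0.0870, 0.229 and 0.183 CPM) had higher ones, and CD4 had at most 9 counts in any sample. The 5 NK cell markers summed to 3.42 to 4.09 CPM in 2D, 3.26 to 4.33 in 3D_7d and 7.21 to 11.2 in 3D_14d. Within this sum, KLRD1 had means of 0.551, 2.30 and 4.69 CPM in 2D, 3D_7d and 3D_14d. In the same order KLRF1 had 1.405, 0.908 and 2.81 CPM, and NKG7 had 1.655, 0.423 and 1.075 CPM. NCAM1 and NCR1 had at most 18 and 3 counts in any sample. The part of the T and NK cell lists in the level of FCRL3 was not tested.

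The genes that work with these receptors were described from 4 lists. Of 16 other Fc receptor genes, 7 were tested, of which 1 rose and 1 fell in 3D_7d vs 2D and 4 rose and 0 fell in 3D_14d vs 2D. Beside these stand 22.2% of all tested genes called higher and 21.2% lower at day 7, and 19% and 17.2% at day 14. FCGRT, the neonatal IgG receptor, fell by 1.90 on the log2 scale at day 7 (edgeR, adjusted p = 3.01e-05) and rose by 0.63 at day 14 (adjusted p = 0.0261), a difference of 2.52 between the time points (adjusted p = 3.17e-05). TRIM21, a cytosolic IgG receptor, rose by 0.75 and 0.79 at day 7 and day 14 (adjusted p = 0.00135 in both), and PIGR, the transporter of polymeric immunoglobulin, rose by 1.09 at day 14 (adjusted p = 0.000297). The list's median was -0.21 at day 7 and 0.63 at day 14.

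Of 17 other inhibitory receptors of B cells, 12 were tested. In this list 3 rose and 5 fell at day 7, with a median of -0.37, and 3 rose and 1 fell at day 14, with a median of -0.04. Of all tested genes, 22.2% were called higher and 21.2% lower at day 7, and 19% and 17.2% at day 14. PECAM1, an adhesion receptor with ITIM motifs, rose by 1.61 and 2.22 (log2; edgeR, adjusted p = 0.000108 and 2.13e-05), PDCD1 (PD-1) rose by 0.55 at day 7 (adjusted p = 0.0100, and 0.0698 without 2D replicate 3) and CD72 rose by 0.90 at day 14 (adjusted p = 0.00246). CD22, a sialic acid-binding inhibitor of the B cell receptor, fell by 1.12 at day 7 and 0.71 at day 14 (adjusted p = 0.000736 and 0.0140), and LILRB4 fell by 1.27 at day 7 (adjusted p = 0.000334).

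All 22 genes of the signal relay (kinases, phosphatases and adaptors of ITIM and ITAM motifs, with chains of the B cell receptor and associated membrane proteins) were tested. In this list 5 rose and 3 fell at day 7, and 8 rose and 1 fell at day 14, with medians of 0.21 and 0.24, beside 22.2% of all tested genes called higher and 21.2% lower at day 7 and 19% and 17.2% at day 14. The day 7 counts moved to 3 higher without 2D replicate 2, 2D replicate 3 or 3D_7d replicate 2, to 5 lower without 3D_14d replicate 1, and to 11 higher and 6 lower with only the 6 samples of the contrast, and the day 14 count to 5 higher without 2D replicate 1. PTPN6 (SHP-1), a phosphatase that ITIM motifs recruit, rose by 0.97 and 1.06 (log2; edgeR, adjusted p = 0.000282 and 0.000234). INPP5D (SHIP1), the lipid phosphatase recruited by FCGR2B, rose by 1.09 at day 7 (adjusted p = 0.000428), and CD79A, a signaling chain of the B cell receptor, rose by 1.37 at day 14 (adjusted p = 0.000101). LYN, the kinase that phosphorylates these motifs, fell by 0.72 and CD81, a membrane-spanning tetraspanin, by 0.93 at day 7 (adjusted p = 0.0291 and 0.00588), and PTPN11 (SHP-2) fell by 0.68 at day 14 (adjusted p = 0.00985). The LYN call was lost without 2D replicate 1 (-0.65, adjusted p = 0.0795), 2D replicate 2 (-0.66, 0.0779), 3D_7d replicate 2 (-0.71, 0.0742) or 3D_7d replicate 3 (-0.72, 0.0706).

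The list of immunoglobulin constant genes, which holds the heavy chains that form the Fc part, the light chains and the joining chain JCHAIN, had 9 tested of 15. At day 7, 8 rose and 1 fell, with a median of 1.91, and at day 14, 8 rose and 0 fell, with a median of 2.54. IGHG2 is part of these counts and medians, with means of 0.640 CPM in 2D, 5.44 in 3D_7d and 5.19 in 3D_14d. It passed the filter through its 3D samples, so a call lower in 3D than in 2D was hardly open to it. The shares of all tested genes called higher and lower were 22.2% and 21.2% at day 7 and 19% and 17.2% at day 14. IGKC, the kappa light chain, rose from 2202 ± 233 CPM in 2D to 13930 ± 1706 in 3D_7d and 19780 ± 6439 in 3D_14d (log2 differences of 2.66 and 3.17; edgeR, adjusted p = 5.55e-06 and 3.37e-06). IGHG3 rose by 2.76 and 2.86 (adjusted p = 1.15e-06 and 1.45e-06), and IGHD, the heavy chain of IgD, fell by 0.57 at day 7 (adjusted p = 0.0223), a call lost without 2D replicate 2 (adjusted p = 0.0563), 3D_7d replicate 2 (0.0623) or 3D_7d replicate 3 (0.0726). IGHG genes are near-identical copies, so their reads cannot be fully separated. In 3D_14d vs 3D_7d the counts higher and lower were 5 and 0 for other Fc receptors, 5 and 1 for other inhibitory receptors, 5 and 0 for the signal relay and 2 and 0 for the constant genes. Beside them stand 14.5% and 13.6% of all tested genes.

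**Figure D5:**
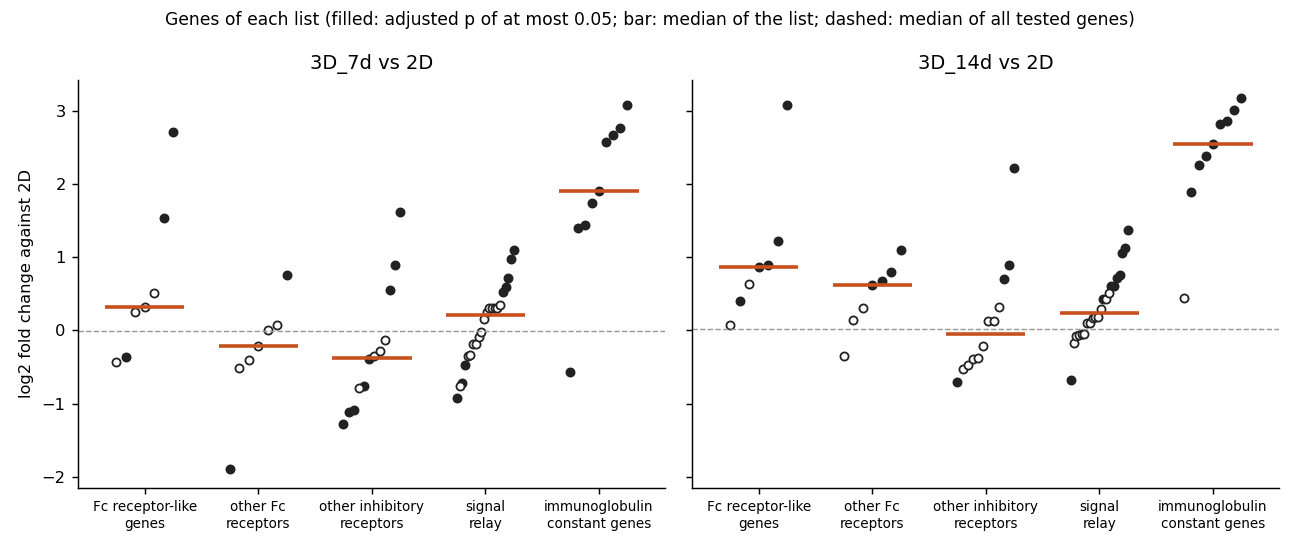
Log2 fold change against 2D (y axis) of the tested genes of each list (x axis) at day 7 (left) and day 14 (right), filled where the adjusted p was at most 0.05, with a bar for the median of the list and a dashed line for the median of all tested genes. The immunoglobulin constant genes lie highest, with medians of 1.91 and 2.54, and the bar of the Fc receptor-like genes moves from 0.32 to 0.87.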

How the data were processed

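RNA of 9 MEC1 samples was analysed, grouped by the culture method and day in the labels. The authors made SMART-Seq libraries, sequenced single reads of 100 bases, trimmed them with Trimmomatic (version 0.39), aligned them with STAR (version 2.5.3a) and assigned them to genes with featureCounts (version 1.6.4), tools and versions as in the submitters' processing notes. The deposited values are these raw counts per gene symbol, with no normalization, beside the summed exon length.

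The members and all gene lists were chosen with earlier results of these data known. In R (version 4.3.3), edgeR (version 4.0.16) fitted 1 model of all 9 samples to genes that exceeded 1 CPM in 3 samples or more. TMM factors scaled the libraries, the quasi-likelihood test was applied to 3 contrasts, and the Benjamini-Hochberg adjustment covered every tested gene. CPM and RPKM per sample and their mean ± SD were computed from the counts, and a count of 3 was the floor. Intervals of fold changes are at 95%. Marker lists of B, plasma, T, NK, monocyte and fibroblast or endothelial cells were summed per sample. The last summed to 23.1 to 27.0 CPM in 2D, 38.0 to 55.0 in 3D_7d and 53.5 to 80.0 in 3D_14d, mostly PECAM1. The named genes were all members, the related genes FCGR2A and FCGR2C, genes with exons overlapping those of a member, the 3 genes with the highest Pearson r for each tested member, and in each list the 2 genes with the smallest p in each direction among those called in 3D_7d vs 2D or 3D_14d vs 2D. AL356276.1, which overlaps 6.21% of the exon bases of FCRL3 on the opposite strand, had at most 3 counts in a sample.

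Replicate numbers were checked as pairs. The correlation of deviations from the group means was -0.10 to 0.19 over 9 same-numbered pairs, and the numbers were not treated as pairs. The alternatives were the scaling (DESeq2 size factors, total counts alone), the Wald test of DESeq2 (version 1.42.0), the filter (filterByExpr, none), the 6 samples of a contrast alone, a block for the replicate number, a minimum absolute log2 fold change of 1 and 9 fits that each left out 1 sample. The pipeline was tested on counts simulated for 3D_7d vs 2D with 13142 genes tested. Of the genes changed by 1 on the log2 scale edgeR recovered 57.4%, and of those changed by 2 it recovered 95%, while 3.87% of its calls fell on genes left unchanged. For DESeq2 these values were 73.4%, 99% and 16%. The counts were drawn with edgeR's own estimate of the spread of each gene, the same for all groups. Only 94 and 100 tested genes were changed, by 1 and by 2, far fewer than were called in the data. The shares are therefore not error rates of these data and do not rank the tools. Promoter windows came from RefSeq and gene models from GENCODE release 44, while the counts rest on release 31. Protein features were not analysed here.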

Additional observations from a re-analysis of the deposited data

Results flagged for a closer look

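The effect against 2D differed between day 7 and day 14 for 3 of the 7 tested members, by the test of 3D_14d vs 3D_7d in the same model. It is the comparison reported above, in which 14.5% of all tested genes were called higher and 13.6% lower. The differences were 0.899 for FCGR2B (log2; edgeR, adjusted p = 0.00113), 0.765 for FCMR (adjusted p = 0.00134) and 0.638 for FCRLA (adjusted p = 0.00735), each higher at day 14 in 3 of 3 samples than in any sample of day 7. Of all tested genes, 39.3% had no overlap between these groups. For FCMR, the effect against 2D was below 0 at day 7 and above 0 at day 14, calls that were lost in 6 and 8 of 16 alternative fits.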

How the results depend on the processing

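Of 339 values of the 21 member results in the alternative fits, 306 kept their direction and their side of the threshold, 14 lost the call (all FCMR against 2D), 16 gained it and 3 turned sign, all FCRLB in 3D_14d vs 2D. These were -0.141 with total counts, -0.081 without 2D replicate 3 and -0.012 without 3D_14d replicate 1, and with 1 sample left out this difference ranged from -0.081 to 0.208. FCGR2C turned to -0.072 in 3D_14d vs 2D with total counts. The cause was not tested. The replicate block changed the call of 0 of the members, and the numbers are not shown to pair the samples. DESeq2 left 3 genes without an adjusted p in each contrast, filterByExpr tested 19286 genes and no filter 51726. Without the filter, FCRL1 and FCRL2 had adjusted p of 0.694 to 1 (edgeR). FCRL1 and FCRL2 had 0 to 6 counts in a sample.

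Counts of calls below are given in the order higher or lower and comparison, against those in the report. When calls also needed a log2 fold change of 1 or more in size, the genes called were 1114 higher and 1641 lower in 3D_7d vs 2D, 981 and 1191 in 3D_14d vs 2D and 984 and 472 in 3D_14d vs 3D_7d. Members were then 0 lower in 3D_7d vs 2D, 2 higher in 3D_14d vs 2D and 0 higher in 3D_14d vs 3D_7d. Other Fc receptors were 0, 1 and 2 higher in the 3 comparisons, other inhibitory receptors 1, 1 and 3 higher and 3 and 0 lower against 2D, the signal relay 1, 3 and 3 higher and 0 and 0 lower against 2D, and the constant genes 0 lower at day 7 and 1 higher between time points. Total counts gave 1604 genes higher in 3D_14d vs 2D, 47.4% rather than 51.5% higher calls in 3D_14d vs 3D_7d, and in 3D_7d vs 2D 2 members lower, 3 other Fc receptors lower, and 3 higher and 6 lower of the signal relay, which had 5 higher and 2 lower in 3D_14d vs 2D. Other inhibitory receptors were 2 lower in 3D_14d vs 2D with total counts, DESeq2 size factors, the DESeq2 test or the replicate block. The DESeq2 test also called 1 member lower in 3D_14d vs 3D_7d (FCRL3), 2 other Fc receptors lower at day 7 and 1 relay gene lower between time points, as did the replicate block (1). With only the 6 samples of a contrast, 3D_7d vs 2D had 5 members higher and 2 lower, 3 other Fc receptors lower and 11 higher and 6 lower of the relay, and 3D_14d vs 3D_7d had 1124 genes lower, 3 other Fc receptors, 3 other inhibitory receptors and 1 constant gene higher. No filter gave 0 members lower at day 7, as did filterByExpr (0), 5 relay genes higher at day 14, and 3 other Fc receptors, 3 other inhibitory receptors and 5 constant genes higher between time points.

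With 1 sample left out, members called higher ranged from 2 to 4, 4 to 5 and 3 to 4 in the 3 comparisons, and lower from 0 to 1 in 3D_7d vs 2D and 0 to 1 in 3D_14d vs 3D_7d. All genes ranged from 1617 to 2862 higher in 3D_14d vs 2D, and from 1188 to 2200 higher and 1088 to 2157 lower in 3D_14d vs 3D_7d. The constant genes ranged from 1 to 5 higher between time points and 0 to 1 lower at day 7, other Fc receptors from 2 to 5 higher between time points, and other inhibitory receptors from 1 to 3 higher at day 7, 1 to 3 lower at day 14, and 4 to 8 higher and 0 to 1 lower between time points. The signal relay ranged from 3 to 7 higher and 1 to 5 lower at day 7, 5 to 10 higher at day 14, and 3 to 7 higher and 0 to 3 lower between time points.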
